A study of Mus musculus with 27 samples.

Results

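A group of 7 genes that set the balance of phosphate and pyrophosphate at mineralizing sites was followed through osteoblast differentiation: Alpl, Phospho1, Smpd3, Enpp1, Ank, Slc20a1 and Slc20a2. They were taken as a list of gene names, with no measured value in the rule, and are 7 of the 37991 genes in the files. Only some are enzymes, since Ank and the Slc20a genes encode membrane transport proteins. The cells came from the calvaria of neonatal C57BL/6J-Col3.6 CFP mice aged 5 to 9 days, in which a fragment of a type I collagen promoter drives a cyan fluorescent protein. CFP-positive cells were sorted after 4 days of culture, replated with ascorbic acid and 4 mM beta-glycerol phosphate, and profiled by RNA sequencing on days 2, 4, 6, 8, 10, 12, 14, 16 and 18. All days share this strain, sort and medium, and no untreated or undifferentiated control is among the samples. The sort selects cells by the collagen promoter and not by a mature osteoblast marker, and beta-glycerol phosphate is itself a phosphate donor present on every day.

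Bone mineral forms when calcium and inorganic phosphate precipitate within and around collagen fibrils, and pyrophosphate is a strong inhibitor of crystal growth. Tissue-nonspecific alkaline phosphatase, encoded by Alpl, sits on the outer membrane of osteoblasts and of the matrix vesicles they shed, where it hydrolyses pyrophosphate and releases phosphate. Inside the vesicle, the phosphatase PHOSPHO1 frees phosphate from phosphocholine, and the neutral sphingomyelinase encoded by Smpd3 is a source of phosphocholine from membrane sphingomyelin. The ectoenzyme ENPP1 makes pyrophosphate from extracellular nucleotides, and ANK carries pyrophosphate or ATP out of the cell. Slc20a1 and Slc20a2 encode the sodium-phosphate cotransporters PiT-1 and PiT-2. Loss of ALPL causes hypophosphatasia, in which bone is undermineralized, whereas loss of ENPP1 causes calcification of arteries in infancy.

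The stretches just upstream of the genes are given first, since the level of several genes shifted many-fold between days. Promoter sequences in a RefSeq table of mouse build GRCm38.p6 were matched exactly to NCBIM37, the build of the files, for 5 of the 7 genes (7 start sites in all). Each line below holds the 250 bases before a RefSeq start, 5′ to 3′ on the strand of the gene, and capitals mark matches to the RUNX core TGTGGT or the GC box GGGCGG on either strand. The Alpl stretch lies at chr4:137352300-137352549 (minus strand), that of Phospho1 at chr11:95685564-95685813 (plus), that of Enpp1 at chr10:24431966-24432215 (minus) and that of Slc20a1 at chr2:129024259-129024508 (plus).
Alpl: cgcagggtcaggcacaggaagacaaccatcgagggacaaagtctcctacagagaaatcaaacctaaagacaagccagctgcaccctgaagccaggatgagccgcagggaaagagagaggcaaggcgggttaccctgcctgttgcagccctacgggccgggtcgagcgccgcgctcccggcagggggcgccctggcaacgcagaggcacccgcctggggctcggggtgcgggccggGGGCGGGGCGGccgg
Phospho1: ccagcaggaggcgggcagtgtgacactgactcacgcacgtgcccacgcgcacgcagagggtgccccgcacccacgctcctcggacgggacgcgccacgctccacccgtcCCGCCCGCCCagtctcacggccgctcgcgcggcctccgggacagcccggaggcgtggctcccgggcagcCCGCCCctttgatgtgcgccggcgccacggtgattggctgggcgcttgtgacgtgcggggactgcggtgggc
Enpp1: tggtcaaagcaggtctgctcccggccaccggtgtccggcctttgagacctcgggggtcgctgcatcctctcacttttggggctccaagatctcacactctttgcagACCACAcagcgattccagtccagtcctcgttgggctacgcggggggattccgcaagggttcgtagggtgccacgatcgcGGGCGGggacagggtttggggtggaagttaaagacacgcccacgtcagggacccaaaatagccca
Slc20a1: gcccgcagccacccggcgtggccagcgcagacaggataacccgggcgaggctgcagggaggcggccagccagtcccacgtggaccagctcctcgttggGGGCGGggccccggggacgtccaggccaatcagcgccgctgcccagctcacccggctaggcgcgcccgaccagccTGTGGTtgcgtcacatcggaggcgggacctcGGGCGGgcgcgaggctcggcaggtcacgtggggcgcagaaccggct

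The Alpl stretch holds 2 overlapping GC boxes next to the start and no RUNX core. Phospho1 has 3 GC boxes on the opposite strand, of which 2 overlap. Enpp1 and Slc20a1 each hold 1 RUNX core, the letters bound by the osteoblast factor RUNX2 and its relatives, together with 1 and 2 GC boxes. Over 32851 RefSeq promoters of the same length, the RUNX core was found in 14.0% and the GC box in 32.7%. The homeodomain core TAATTA, found in 4.8% of all promoters, was in none of the 7 stretches. Ank had 2 overlapping GC boxes at chr15:27396182-27396431 (plus). A second Alpl start had none of the 3 motifs, and a second Slc20a1 start had 1 GC box. These matches describe letters in short windows, and no binding was measured.

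Each day is represented by 3 profiles, which the labels number as replicates and the study's methods describe as triplicate samples. The 3 carry 1 barcode in 3 sequencing lanes, and no source used here says that they came from separate cultures, so a day was treated as 1 library without a biological replicate. Every n and p rests on that reading. The day totals ranged from 22470195 to 62009157 estimated counts, and 37 mitochondrially encoded genes took between 31.1% and 39.0% of the TPM (transcript abundance scaled to a sum of 1000000). The lanes of a day differed little for the 7 genes: of 63 chi-square tests of their counts, 3 (4.76%) had p under 0.05, and 0 passed after Benjamini-Hochberg adjustment. Levels are therefore given as TPM after upper-quartile scaling, the mean of the 3 profiles of a day, and the SD given for a day reflects only the repeat of sequencing and quantification. Tests used the 9 summed libraries, with the spread around a line or curve in day, or within a stage of 3 days, in place of replicates. That spread includes real change between days, and any batch that followed the day cannot be told apart from time. In bulk RNA, fewer cells of a type and less RNA per cell cannot be told apart either.

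All 7 genes passed the filter on low counts. By their mean over 9 days, Slc20a1 stood highest at 43.2 ± 50.9 TPM (SD over days, n = 9), followed by Ank at 22.1 ± 3.81, Slc20a2 at 16.1 ± 2.18 and Enpp1 at 14.9 ± 4.55. Alpl averaged 9.75 ± 7.14 TPM, Phospho1 4.78 ± 3.87 and Smpd3 0.948 ± 1.27, the last of which was 0.567 without day 18. This order was not stable in time: Slc20a1 led on days 2 to 8, and Ank led on days 10 to 18. Ank exceeded Slc20a2 on 9 of 9 days and Phospho1 exceeded Smpd3 on 9 of 9, whereas Slc20a1 exceeded Ank on only 4. Slc20a2 against Enpp1 (5 of 9 days), Enpp1 against Alpl (5 of 9) and Alpl against Phospho1 (6 of 9) did not separate beyond their spread over days.

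**Figure D1:**
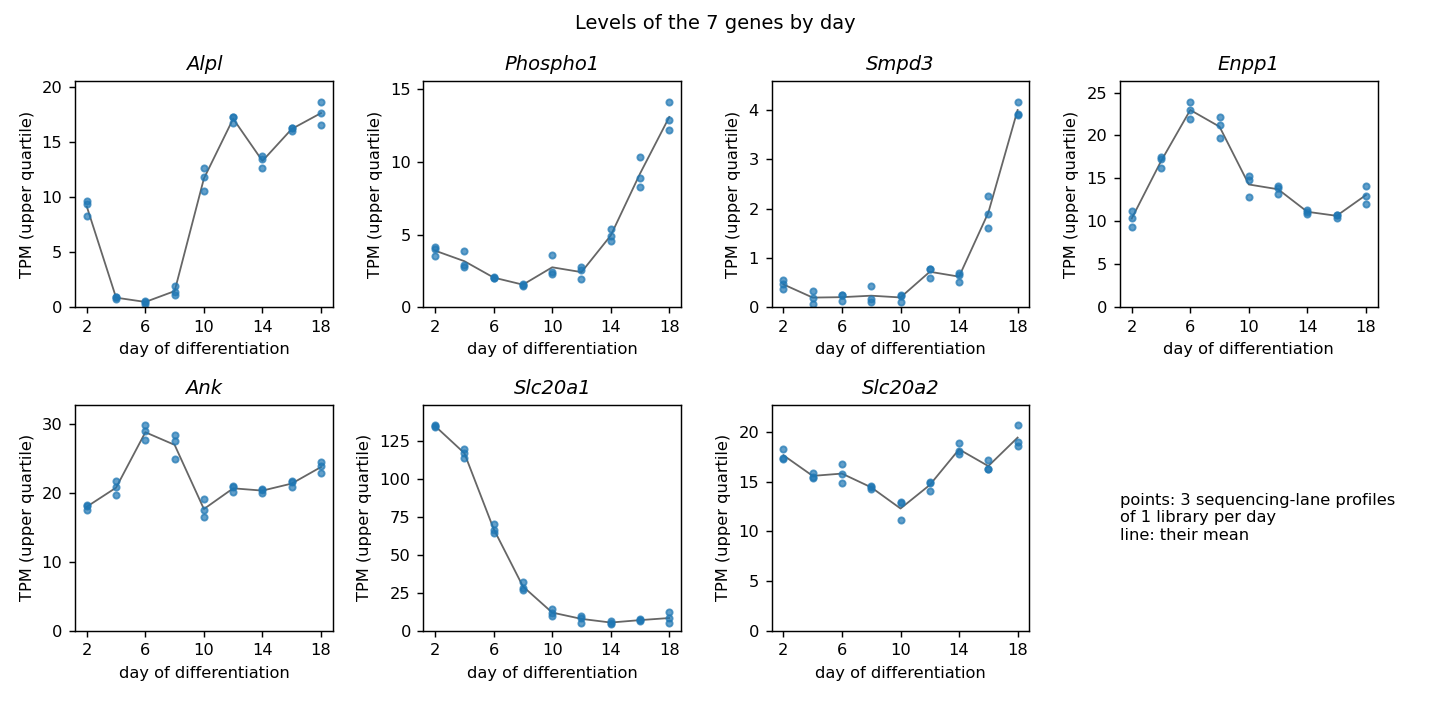
Level of each gene (y axis, TPM after upper-quartile scaling, each panel with its own scale from 0) against day of differentiation (x axis). Points are the 3 lane profiles of the 1 library of a day and lines join their means; Slc20a1 goes from 135 to 8.40 TPM, Smpd3 from 0.461 to 4.00, and Alpl is lowest on day 6 at 0.467.

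Every one of the 7 genes changed over the days when a natural spline in day was fitted (edgeR quasi-likelihood test, adjusted p under 0.05), where 59.1% of all 15659 genes tested were called. A straight line from day 2 to day 18 called 3 of the 7, beside 54.3% of all genes: Phospho1 and Smpd3 rose, as did 28.3% of all genes, and Slc20a1 fell, as did 26.1%. Between days 2-6 and days 8-12, 1 of the 7 was called, Slc20a1, beside 31.0% of all genes. Between days 8-12 and days 14-18, edgeR called 0 of the 7 and 0% of all genes, although 2557 genes had an unadjusted p under 0.05. DESeq2 called Phospho1 and Smpd3 in that last step, beside 3.59% of all genes. Leaving out single days lowered the number called by the spline to as few as 4 of 7 (without day 4, 6 or 8). The spline then called 51.2%, 53.8% and 55.7% of all genes. The number called by the line moved between 2 and 5. It was 2 without day 4, 6, 16 or 18, beside 45.9%, 50.4%, 49.9% and 52.5% of all genes, and 5 without day 2, beside 46.3%. Smpd3 and Slc20a1 were called by both the line and the spline whichever day was left out.

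**Figure D2:**
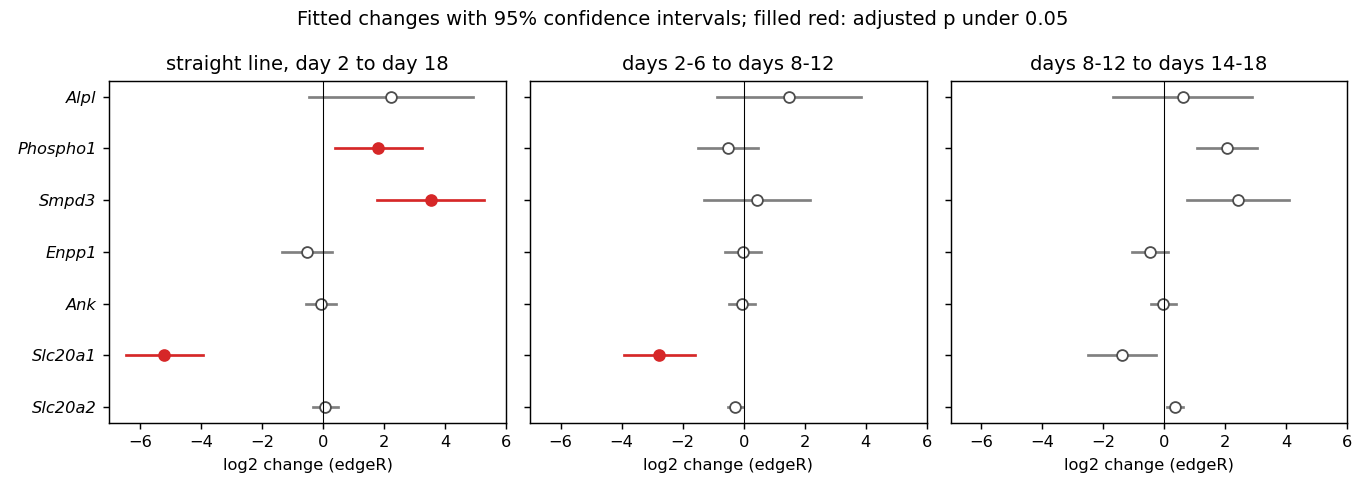
Fitted log2 change (x axis) of each gene (y axis) from day 2 to day 18 along a straight line, from days 2-6 to days 8-12, and from days 8-12 to days 14-18. Points are edgeR estimates over 9 libraries, bars are 95% confidence intervals, and filled red marks an adjusted p under 0.05, which holds for Phospho1, Smpd3 and Slc20a1 along the line and for Slc20a1 alone in the first step.

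Alpl, the pyrophosphate-splitting phosphatase, was present on day 2, nearly absent on days 4 to 8 and high from day 10 on. Its level was 9.13 TPM on day 2, then 0.857, 0.467 and 1.45 on days 4, 6 and 8. From day 10 to day 18 it was 11.7, 17.1, 13.3, 16.2 and 17.6 TPM. Day 2 therefore lay below each of the last 5 days and well above the 3 days that followed it. The drop after day 2 exceeded counting error by far, with 592 counts on day 2 (14.0 CPM, counts scaled to a total of 1000000, exact Poisson 95% interval 12.9 to 15.2) against 31 on day 6 (0.718 CPM, 0.488 to 1.02). The interval covers counting error only.

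The spline found a change in Alpl over the days (edgeR, adjusted p = 0.00765). That call was lost without day 4 (adjusted p = 0.0766), day 6 (0.115) or day 8 (0.0558), the 3 days on which the gene was low. The straight line gave a log2 change of 2.22 (SE 1.22, 95% interval -0.47 to 4.92, edgeR adjusted p = 0.146) and did not pass. Without day 2 the line gave 5.79 (edgeR adjusted p = 0.00904) and the step from the early to the middle days 4.03 (0.0197), so day 2 decides both calls. Alpl lies at chr4:137297648-137352299 on the minus strand (ENSMUSG00000028766), overlaps no other gene, and had whole-number counts in 27 of 27 profiles.

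The osteoblast transcription factor Sp7 was also high on day 2 (32.3 TPM), lowest on day 8 (2.77) and at 10.6 on day 18. The parathyroid hormone receptor Pth1r was at 8.99 TPM on day 2, 3.39 on day 8 and 10.1 on day 18. Like Alpl, both changed by the spline (edgeR adjusted p = 1.2e-05 for Sp7 and 0.00101 for Pth1r) and neither passed the line. Both were picked from the osteoblast list after their values were seen, and other markers ran differently. The collagen genes Col1a1 (1526, 2368 and 4263 TPM on days 2, 6 and 18) and Col1a2 (983, 1850 and 4114) were lowest on day 2, and Runx2 was at 46.4, 45.2 and 62.0. The adipocyte regulator Pparg also had a low day 6, at 5.15, 1.88 and 35.1 TPM. The intestinal and germ-cell alkaline phosphatase genes Alpi, Akp3 and Alppl2 had 0 counts on every day, which allows at most 3 counts, or between 0.0484 and 0.134 CPM depending on the day's depth. Alpl was thus the only alkaline phosphatase gene of the 4 that was detected.

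Of the 2 genes of the phosphocholine route, Smpd3 rose late. This sphingomyelinase was at 0.461, 0.193, 0.201, 0.231 and 0.196 TPM on days 2 to 10, and at 0.717, 0.618, 1.92 and 4.00 on days 12 to 18. It reached 1 TPM only on the last 2 days, which stood apart from the other 7. The early levels rest on few reads, 5 counts on day 10 and 8 on day 8, against 182 on day 18. In CPM, day 10 had 0.223 (exact Poisson 95% interval 0.0723 to 0.519) and day 18 had 4.09 (3.52 to 4.73).

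Along the line, Smpd3 rose by a log2 change of 3.53 (SE 0.80, 95% interval 1.77 to 5.29, edgeR adjusted p = 0.00365), and the spline gave an adjusted p of 5.62e-05. The line ranged from 2.53 to 5.25 when single days were left out, and passed each time. From the early to the middle days its log2 change was 0.43 (edgeR adjusted p = 0.692), a value that turned to -0.40 without day 12. From the middle to the late days it was 2.41 (95% interval 0.74 to 4.09), which did not pass in edgeR (adjusted p = 0.214) and passed in DESeq2 (adjusted p = 0.0386). Smpd3 (ENSMUSG00000031906) lies at chr8:108779159-108789819 on the minus strand and shares no exon bases with another gene.

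Phospho1, whose product frees phosphate from phosphocholine, followed a similar late course, but its reads are hard to assign. Its levels were 3.89, 3.16, 2.03, 1.54, 2.74 and 2.41 TPM on days 2 to 12, then 4.93, 9.20 and 13.1 on days 14 to 18. Days 14 to 18 all lay above the other 6 days. Its effective length varied 1.48-fold between days, from 1101 on day 6 to 1631 on day 8. In CPM, which takes no length into account, day 6 was lowest (1.52, beside 1.75 on day 8). Along the line it rose by a log2 change of 1.81 (SE 0.64, 95% interval 0.39 to 3.23, edgeR adjusted p = 0.0341), a call lost without day 4, 6, 16 or 18 (1.96, 1.64, 1.68 and 1.11, adjusted p between 0.0507 and 0.215). The spline passed with an adjusted p of 2.81e-05 and remained past the threshold whichever day was left out. From the middle to the late days the log2 change was 2.05 (95% interval 1.08 to 3.03), with an adjusted p of 0.199 in edgeR and 0.00107 in DESeq2.

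The annotation places 1818 of the 2151 exon bases of Phospho1 (84.5%) within exons of Zfp652 on the same strand, and 1708 (79.4%) within exons of the antisense gene Abi3. Its counts were whole numbers in only 4 of 27 profiles, and RSEM splits a read that matches several genes among them. Zfp652, a zinc-finger gene, went from 20.0 to 61.8 TPM and rose along the line by 1.76 (edgeR adjusted p = 9.36e-05). Abi3 went from 1.37 TPM on day 2 (32 counts) to 14.5 on day 18 (116 counts). Its log2 change along the line, fitted to counts, was 1.41 (edgeR adjusted p = 0.061). Its TPM and counts did not run together, with 39 counts at 0.521 TPM on day 4 and 28 counts at 4.30 TPM on day 14. The level of Phospho1 is therefore uncertain, and the part of both neighbours in its rise was not tested. Phospho1 (ENSMUSG00000050860) lies at chr11:95685813-95693454 on the plus strand.

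The genes that supply extracellular pyrophosphate had a different course, highest on days 6 and 8. Enpp1 was at 10.3, 17.0, 23.0 and 21.03 TPM on days 2 to 8, followed by 14.3, 13.7, 11.1, 10.6 and 13.1 on days 10 to 18. It was thus highest on the days when Alpl was lowest. The spline found a change (edgeR adjusted p = 4.91e-05) that passed whichever day was left out, with adjusted p of at most 0.00207. The line gave -0.52 (SE 0.37, 95% interval -1.33 to 0.30, edgeR adjusted p = 0.257), and -1.02 without day 2 (0.00865). Neither step between stages passed, at -0.01 (edgeR adjusted p = 0.984) and -0.47 (0.394). Enpp1 (ENSMUSG00000037370) lies at chr10:24357720-24431965 on the minus strand.

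Ank, the exporter, varied less. Its levels were 18.0, 20.8, 28.9, 27.04 and 17.7 TPM on days 2 to 10 and 20.7, 20.4, 21.4 and 23.8 on days 12 to 18. Days 6 and 8 were the highest for both genes. The spline called Ank (edgeR adjusted p = 0.0186), but the call was lost without day 2, 4, 6 or 8 (adjusted p between 0.069 and 0.148). The line gave -0.07 (95% interval -0.57 to 0.43, edgeR adjusted p = 0.81), so that a net log2 change beyond these bounds lies outside the interval. Ank (ENSMUSG00000022265) lies at chr15:27396432-27524664 on the plus strand, and like Enpp1 it had whole-number counts in 27 of 27 profiles.

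Slc20a1, which encodes the phosphate importer PiT-1, fell by the largest amount of the 7 genes. It was at 135, 117, 67.0 and 29.2 TPM on days 2 to 8, 12.0 on day 10, and 7.83, 5.44, 7.02 and 8.40 on days 12 to 18. Each of the first 5 libraries lay above each of the last 4. On day 2 it ranked above 95.7% of the genes with a TPM over 0, and on day 14 above 49.9%. Its counts went from 9553 on day 2 (226 CPM, exact Poisson 95% interval 221 to 231) to 409 on day 14 (9.06 CPM, 8.20 to 9.98).

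Along the line Slc20a1 had a log2 change of -5.20 (SE 0.57, 95% interval -6.47 to -3.93, edgeR adjusted p = 7.99e-05), and between -6.09 and -4.97 when single days were left out. From the early to the middle days the log2 change was -2.76 (SE 0.52, edgeR adjusted p = 0.00672), while from the middle to the late days it was -1.38 (95% interval -2.51 to -0.26, adjusted p = 0.237). Without day 8 that last step was -0.49 (edgeR adjusted p = 0.679), and without day 12 it was -1.77. Markers of dividing cells fell as well, 5 of 5 by the line, by which 26.1% of all genes tested fell. Their summed level was 312 to 372 TPM on days 2 to 6, 113 to 346 on days 8 to 12 and 80.8 to 104 on days 14 to 18. Of the 5, Top2a (76.7 TPM) and Ccna2 (83.0) were highest on day 8, Mki67 and Cdk1 on day 6, and Ccnb1 on day 2. Slc20a1 was at 29.2 TPM on day 8. The part of dividing cells in the fall of Slc20a1 was not tested. Slc20a1 (ENSMUSG00000027397) lies at chr2:129024500-129037352 on the plus strand and shares 452 of its 5580 exon bases (8.1%) with the antisense gene 9830144P21Rik, which itself fell by 2.96 on the log2 scale (edgeR adjusted p = 0.00267). None of its 27 profiles had a whole-number count (0 of 27), and whether the kit or the counting kept the strand is not given in the sources used here. Its effective length also varied 1.30-fold between days, and the 3 profiles of day 18 had an SD of 3.60 TPM.

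Slc20a2, which encodes PiT-2, had a flat course beside that of Slc20a1. Its levels were 17.7, 15.6, 15.8, 14.4 and 12.3 TPM on days 2 to 10, and 14.7, 18.3, 16.6 and 19.4 on days 12 to 18. The highest day was 1.58 times the lowest, the smallest such ratio of the 7 genes, beside 1.63 for Ank. The line gave 0.07 (SE 0.18, 95% interval -0.34 to 0.48, edgeR adjusted p = 0.769). The spline passed narrowly (adjusted p = 0.0387), and the call was lost without replicate 1 (0.0745) and without any 1 of days 2, 4, 6, 8, 10, 12 or 18. The stage steps were -0.27 (edgeR adjusted p = 0.0968) and 0.35 (0.215). Slc20a2 (ENSMUSG00000037656) lies at chr8:23587172-23680079 on the plus strand. It shares 180 exon bases (4.9%) with the antisense gene AI316807, which rose by a log2 change of 1.30 (edgeR adjusted p = 0.000701).

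Ratios of 2 genes within a library do not depend on its scaling, and 3 pairs of opposed or parallel roles were compared with day. The ratio of Slc20a1 to Slc20a2 was 2.93 on the log2 scale on day 2, -0.04 on day 10 and -1.75 on day 14. Slc20a1 was thus the more abundant of the pair up to day 8 and Slc20a2 from day 12 on. On day 10 the 2 were level within the SD of the profiles (12.0 ± 2.49 and 12.3 ± 1.01 TPM, n = 3 profiles). The ratio fell with day (Pearson r = -0.947, exact two-sided permutation p = 0.000182, adjusted over 3 pairs 0.000546; Spearman rho = -0.933, p = 0.00075, adjusted 0.00225). Without days 2 and 18 r was -0.964 (exact permutation p = 0.00119). Days follow each other, so neighbouring values may not be exchangeable as such a test assumes.

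The ratio of Alpl to Enpp1, the enzyme that splits pyrophosphate against the one that makes it, was -0.18 on day 2, -4.31, -5.62 and -3.86 on days 4, 6 and 8, and -0.29 on day 10. On days 12 to 18 it was 0.32, 0.26, 0.61 and 0.43, the only days with more Alpl than Enpp1. Its rank rose with day (rho = 0.783, exact permutation p = 0.0172, adjusted 0.0258), while Pearson's r of 0.616 did not pass (exact permutation p = 0.0804, adjusted 0.0804). Without days 2 and 18 r was 0.896 (exact permutation p = 0.00913), and without any 1 of days 12, 14, 16 or 18 rho no longer passed (0.714, adjusted p between 0.0576 and 0.0864). Phospho1 over Smpd3 was 3.08 on day 2 and 1.71 on day 18, with rho = -0.733 (exact permutation p = 0.0311, adjusted 0.0311) and r = -0.685 (p = 0.0452, adjusted 0.0678). Without days 2 and 18 r was -0.659 (exact permutation p = 0.11). This relation depended on the scale, since rho was 0.100 with 1 TPM added to both genes, and it rests on low Smpd3 values.

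**Figure D3:**
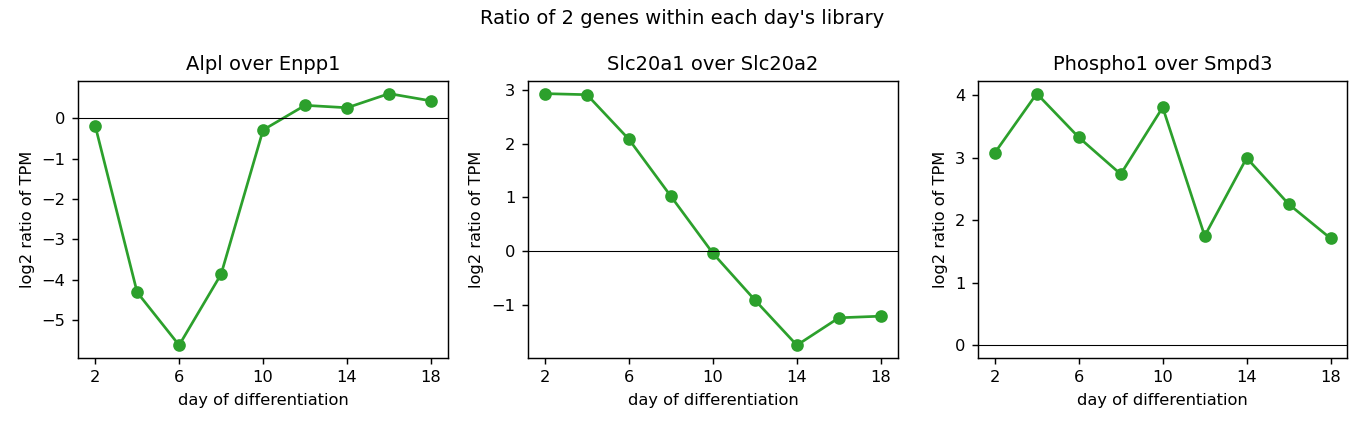
Log2 ratio of the TPM of 2 genes within a library (y axis) against day (x axis), 1 point per day, with a line at equal levels. Slc20a1 over Slc20a2 goes from 2.93 to -1.21 and crosses equality at day 10, Alpl over Enpp1 is lowest on day 6 at -5.62, and Phospho1 over Smpd3 stays above 0.

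Among the 7 genes, the levels that ran most closely together over 9 days, as log2(TPM + 1), were those of Phospho1 and Smpd3 (Pearson r = 0.91) and of Enpp1 and Ank (0.75). Alpl ran opposite to Enpp1 (-0.85) and to Slc20a1 (-0.73), and Slc20a1 and Slc20a2 were unrelated (-0.04). These are descriptions over 9 points that share a time course, with no test. Among 7656 or 7655 other genes with a mean of at least 10 TPM, the courses most like that of Alpl were those of Rgs3 (r = 0.983), Hip1 (0.980) and Wrn (0.968). Rgs3, a regulator of G protein signalling, was at 34.1 TPM on day 2, 19.7 on day 6 and 44.9 on day 18. Closest to Enpp1 were Adar (0.949), Eif2ak2 (0.944) and Zbp1 (0.944). Zbp1, which encodes a sensor of Z-form nucleic acid, was at 1.54 TPM on day 2, 38.4 on day 6 and 2.19 on day 18.

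Among the genes closest to Ank were Mnda (0.923) and Ly6a (0.906), both at their highest on day 6. Phospho1 was closest to Rmnd5b (0.970), Glul (0.935) and Osbpl8 (0.919), and Smpd3 to Scd1 (0.949), mt-Nd1 (0.943) and Glul (0.940). Scd1, a fatty acid desaturase, was at 61.6 TPM on day 2 and 376 on day 18. Slc20a1 was closest to Uck2 (0.995), Prpf31 (0.994) and Inhbb (0.992), of which Inhbb, a subunit of activins and inhibin, went from 42.8 TPM on day 2 to 2.30 on day 18. Slc20a2 was closest to Igfbp7 (0.965), Serpinf1 (0.946) and G6pdx (0.928), all lowest on day 10.

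The rest of the pathway was described by 6 lists of genes, with the line in day, by which 28.3% of all genes tested rose and 26.1% fell. Of 16 other genes of pyrophosphate and extracellular nucleotides, 15 were tested, 7 rose, 2 fell and 6 did not pass, with a median log2 change of 1.41 beside 0.05 over all genes tested. Entpd2, an ectoenzyme that hydrolyses ATP, went from 0.333 to 51.5 TPM (log2 change 8.18, SE 1.13, edgeR adjusted p = 0.000233), and Enpp2, which makes lysophosphatidic acid, from 0.409 to 12.7 (5.23, SE 0.25, 1.79e-06). The adenosine receptor gene Adora2b fell by 3.79 on the log2 scale (edgeR adjusted p = 0.000283). The ATP exporter gene Abcc6 is among the 7 that rose (3.40, SE 1.11, edgeR adjusted p = 0.0241). It stayed under 1 TPM, with 105 counts in all. Panx1, an ATP channel, fell by 0.84 (edgeR adjusted p = 0.0145).

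Of 12 genes of phosphate transport and its regulation, 7 were tested, 3 rose, 1 fell and 3 did not pass, with a median of 0.84. Phex, an osteocyte-associated peptidase whose loss causes phosphate wasting, went from 0.338 to 37.2 TPM (log2 change 8.23, SE 0.76, edgeR adjusted p = 3.5e-05), and Fam20c, the kinase of secreted matrix proteins, rose by 1.51 (0.000396). The mitochondrial phosphate carrier Slc25a3 fell by 1.11 on the log2 scale (edgeR adjusted p = 0.000388). The renal and intestinal cotransporter genes Slc34a1, Slc34a2 and Slc34a3 had 0 counts on every day, so that the Slc20a genes were the sodium-phosphate cotransporter genes detected among the 5. Xpr1, the phosphate exporter, was between 21.4 and 32.1 TPM and did not pass (-0.21, edgeR adjusted p = 0.182), and the phosphate hormone Fgf23 had 4 counts in all.

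Of 17 genes of sphingomyelin, ceramide and phosphocholine, all were tested, 5 rose, 2 fell and 10 did not pass, with a median of 0.22. Among the other sphingomyelinases, Smpd1 (17.9 to 47.3 TPM) and Smpd2 (9.26 to 22.6) each rose by a log2 change of 1.13 (edgeR adjusted p = 0.000319 and 0.000616), from levels well above those of Smpd3. Smpd4 (20.7 to 16.4 TPM, log2 change -0.10, edgeR adjusted p = 0.581) and Smpd5 (2.34, 0.0698) did not pass. Of 8 tested phosphatase relatives, 3 rose, 3 fell and 2 did not pass (median 0.35). Phospho2, the paralog of Phospho1, fell by 0.62 (edgeR adjusted p = 0.00768), the cytosolic pyrophosphatase Ppa1 fell by 1.54 (0.00025), and Acp5, the tartrate-resistant acid phosphatase of osteoclasts and macrophages, rose by 4.36 (0.000168).

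Of 13 matrix vesicle proteins, 5 rose, 3 fell and 5 did not pass (median 0.17), beside 28.3% and 26.1% over all genes. Those that fell were the annexins Anxa1 (-1.33), Anxa2 (-0.84) and Anxa5 (-0.72), calcium-dependent membrane binders, with edgeR adjusted p of 0.000925, 0.000651 and 0.00202. Of the other annexins, Anxa4 (0.83) and Anxa11 (0.96) rose (edgeR adjusted p = 0.000841 and 0.000565), while Anxa6 (0.17) and Anxa7 (0.08) did not pass. Of 9 mineral-binding matrix proteins, 6 were tested, 4 rose and 2 did not pass (median 4.17). Bglap (osteocalcin) went from 1.24 to 208 TPM, Ibsp (bone sialoprotein) from 0.581 to 78.4 and Dmp1 from 0.0512 to 6.54. Spp1 (osteopontin) was highest on day 6 at 1012 TPM and lowest on day 10 at 285, and did not pass the line (-1.17, edgeR adjusted p = 0.0932). These lists were chosen with earlier results of the same data known.

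**Figure D4:**
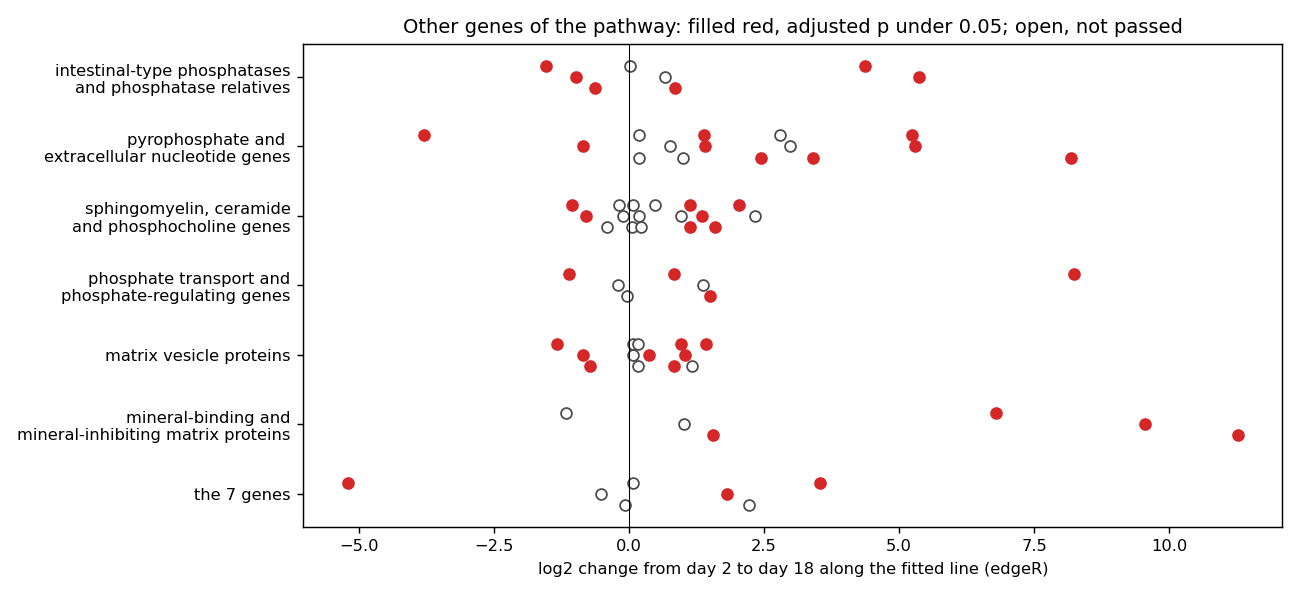
Log2 change from day 2 to day 18 along the fitted line (x axis, edgeR) for every tested gene of 6 pathway lists and for the 7 genes (y axis, 1 row a list). Filled red points passed an adjusted p under 0.05 and open points did not; the mineral-binding list has a median of 4.17 and the matrix vesicle list 0.17.

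The labelled cell type was checked against its markers. Of 9 osteoblast markers, Alpl itself among them, 6 rose by the line, by which 28.3% of all genes tested rose. Sp7 (log2 change -1.23), Pth1r (0.48) and Alpl (2.22) did not pass. Col1a1 was between 1526 TPM on day 2 and 4263 on day 18, and Runx2 was between 42.0 and 65.7 throughout. The late markers Bglap, Ibsp and Dmp1 were at or below 1.24 TPM on day 2. Monocyte, macrophage and adipocyte markers also rose, but part of their rise fell on the middle days. Mean levels on the early, middle and late days were 3.03, 2.23 and 9.08 TPM for Phospho1. For Smpd3 they were 0.285, 0.381 and 2.18 TPM. The 7 monocyte and macrophage markers summed to 24.1 to 61.7 TPM on days 2 to 6 and 522 to 2014 on days 14 to 18. On the middle days their sum was 68.1 to 451 TPM, and 6 of 7 rose by the line. The 5 adipocyte markers summed to 3.21 to 7.44 TPM early, 6.51 to 103 on the middle days and 188 to 407 late. All 5 rose.

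Of 7 osteoclast markers, 3 rose by the line, with edgeR log2 changes of 4.36 for Acp5 (adjusted p = 0.000168), 2.29 for Ctsk (9.28e-05) and 5.21 for Atp6v0d2 (0.000255). Atp6v0d2 went from 0.0129 TPM on day 2 to 3.43 on day 18. Tnfrsf11a and Oscar did not pass, and Calcr and Dcstamp had 0 counts on every day. The summed osteoclast markers were 37.9 to 86.4 TPM early and 206 to 217 late, most of it Ctsk. Of the 5 chondrocyte markers, 3 rose and 1 fell (summed 106 to 129 TPM early, 101 to 129 late), and of 3 tested endothelial markers, 2 rose and 1 fell (3.24 to 3.95 early, 8.84 to 12.0 late). Tek was the largest part of the endothelial sum, at 6.34 TPM on day 18 beside 0.0564 for Pecam1. The part of these cells in the late rise of Smpd3, Phospho1 and the listed genes was not tested.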

How the data were processed

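RNA sequencing profiles of mouse calvarial cells on 9 days of differentiation were used, 27 profiles in all. Per the labels, RNA was amplified with the NuGEN Ovation step before TruSeq library construction, so that counts may not be independent molecules. Transcripts of NCBIM37 were the target of the authors' alignment by Bowtie 0.12.9, from which RSEM (1.2.8 in the submitters' processing notes) gave gene values. The authors deposited estimated counts without normalization, TPM that take into account an effective length averaged over isoforms, and FPKM, which served as an alternative.

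TPM were divided by each profile's 75th percentile over values above 0 (between 21.5 and 25.7 TPM) and multiplied by the mean, 24.0. Counts of the 3 profiles of a day were summed, rounded and tested with edgeR 4.0.16 in R 4.3.3 (quasi-likelihood test, upper-quartile factors, filterByExpr at a count of 10, Benjamini-Hochberg adjustment over 15659 genes, calls at 0.05). The models were a line in day, a natural spline with 3 degrees of freedom, and 3 stages of 3 days. They were also run on simulated counts that changed along a straight line, with less spread than the line model had here (common dispersion 0.0581). That run does not show how the models behave on curved courses or at the spread of these data. Ratios used exact permutation tests in scipy 1.17.1 (Python 3.11.15). Symbols, positions and exon overlaps came from a GENCODE annotation of NCBIM37, which named 37205 of 37991 identifiers. Named genes are the 7 genes, those of the pathway and marker lists, and for each of the 7 the 3 genes of highest Pearson correlation with it, of which 1 is not reported here. Zfp652, Abi3, 9830144P21Rik and AI316807 were named after their overlap was seen. The members and lists were chosen with earlier results of these data known. Alternatives were TMM factors, DESeq2 1.42.0, no count filter, 27 separate profiles, each day or replicate left out, other scales and a pseudocount.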

Additional observations from a re-analysis of the deposited data

How the results depend on the processing

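Of 697 values under alternatives, 616 were counted as unchanged, which for a tested gene or ratio means the same direction and side of the threshold. Of the rest, 32 dropped below the threshold, 23 rose past it, 13 turned direction and 13 moved otherwise. Mean levels and numbers of genes called have no threshold, and some counted as unchanged did differ. The line, for example, called 8510 genes in the main setting and 10754 with 27 separate profiles and no replicate block. TMM factors and the absence of a count filter changed no call of the 7 genes. With the 27 profiles taken as separate samples, more calls passed, as each day then counts 3 times. Without and with the replicate block, the line gave Alpl 2.28 and 2.27 and Enpp1 -0.52 and -0.52. The step from the early to the middle days called 9621 and 9620 genes, with Alpl at 1.51 and 1.50 and Slc20a2 at -0.26 and -0.26. The step from the middle to the late days called 5648 and 5453 genes, with Enpp1 at -0.48 and -0.48, Phospho1 at 2.06 and 2.06, Smpd3 at 2.28 and 2.29, Slc20a1 at -1.39 and -1.39 and Slc20a2 at 0.34 and 0.34. After scaling to depth, profiles of the same number did not deviate together (mean correlation 0.00152, from -0.243 to 0.235, against -0.000724 between numbers). Depth itself did follow the number, as profile 1 had the lowest total on every day (13794218 counts on day 2, against 14243106 and 14243121). DESeq2 called 562 genes from the middle to the late days, with Phospho1 at 2.07 and Smpd3 at 2.48. The rho of Phospho1 over Smpd3 with day was 0.100 with 1 TPM added, -0.683 in FPKM and -0.650 in CPM, the last chosen after seeing the data; with both genes at 1 TPM or more it had too few days. TPM without mitochondrially encoded genes were rescaled to the same sum, which raises the values of the other genes. All 7 levels were then higher by a like factor: Alpl averaged 14.9, Phospho1 7.31, Smpd3 1.44, Enpp1 23.1, Ank 34.1, Slc20a1 66.5 and Slc20a2 24.8. The cause of the other shifts was not tested.

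Leaving out single days, the line ranged from 1.74 to 5.79 for Alpl, -1.02 to -0.30 for Enpp1, -0.25 to 0.06 for Ank (0.06 without day 6), 1.11 to 2.77 for Phospho1 and -0.12 to 0.30 for Slc20a2 (-0.12 without day 18). The spline's adjusted p (edgeR) ranged from 0.000191 to 0.115 for Alpl, 0.00492 to 0.148 for Ank and 0.00976 to 0.116 for Slc20a2. From the early to the middle days, 2175 to 6257 genes were called, with 2925, 2630, 2221 and 2175 without days 2, 4, 10 and 12. Alpl ranged from 0.93 to 4.03, Enpp1 from -0.26 to 0.29 (0.29, 0.05 and 0.12 without days 6, 10 and 12), Ank from -0.25 to 0.13 (0.13, 0.05 and 0.03 without days 6, 10 and 12) and Smpd3 from -0.40 to 1.02 (-0.40 without day 12). From the middle to the late days, 0 to 379 genes were called (379 without day 12), and Ank ranged from -0.14 to 0.15 (0.15 and 0.00 without days 8 and 14). The rho of Alpl over Enpp1 ranged from 0.714 to 0.929. That of Phospho1 over Smpd3 ranged from -0.810 to -0.619, losing its call without day 4, 12, 14, 16 or 18. It also lost its call without replicate 1 (-0.567) or replicate 3 (-0.667). Without replicate 3, Enpp1 gave 0.01 from the early to the middle days. Counts of 5 to 10 for Smpd3 on days 4 to 10 limit its early levels, and 1 library a day limits all p-values to the spread around a course in time.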
